A study of Rattus norvegicus with 30 samples.

Results

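The EGF receptor ligands and ERBB receptors comprised 10 genes here, 6 ligands (Areg, Ereg, Hbegf, Tgfa, Btc and Egf) and 4 receptors (Egfr, Erbb2, Erbb3 and Erbb4). They were picked by gene symbol, with earlier results of these data known, out of 14506 genes with a named probe set. All 10 of 10 symbols were found, each with 1 probe set that names no other gene. The genes were followed in primary cultured rat cells of the inner medullary collecting duct, the last segment of the renal tubule, where the surrounding fluid can become strongly concentrated. Total RNA was profiled on 30 Affymetrix expression arrays in 10 groups of 3.

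The EGF family ligands are made as membrane proteins, and proteases such as ADAM17 release the soluble factor. The ligand binds the extracellular part of an ERBB receptor, receptors pair, and their kinase domains feed the ERK and PI3-kinase cascades. In kidney epithelium the system is known for its roles in growth and repair after injury, and Hbegf and Areg are known to be induced in injured tubules.

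Cells grown at 300 mosmol/kg received medium of 600 mosmol/kg for 3, 12, 24 or 48 h, named here by those hours. A second challenge moved cells grown at 600 mosmol/kg to 900 mosmol/kg for 12 or 24 h. The returned cells were grown at 900 mosmol/kg and spent 24 h at 300 mosmol/kg. The 3 remaining groups were kept at 300, 600 or 900 mosmol/kg and are called steady 300, steady 600 and steady 900. A treatment entry with 5 µM cyclosporin A, a calcineurin inhibitor, stands with all 30 samples but in none of their titles, so it is not settled which cultures were exposed, and all groups may share it. The labels name neither the solute that raised the osmolality nor the animals or cultures behind the replicates. The p-values therefore reflect how far these 3 arrays per group scatter, which may be a technical spread. No strain, sex or age is labelled.

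Values are the authors' log2 values from robust multi-array average (RMA), and changes are log2 differences between group means ± standard error (SE) from a limma fit over all 30 arrays. A gene was called where its p-value, adjusted over all 14506 genes after Benjamini and Hochberg, was under 0.05. Array medians lay between 5.63 and 5.76, and correlations within groups between 0.989 and 0.996. All 30 arrays had their nearest neighbour in their own group. Replicate 3 of the 3 h group stood apart from its fellows, with median absolute differences of 0.205 and 0.198 to replicates 1 and 2, against 0.122 between those 2 arrays. So did replicate 9 of the second challenge at 12 h, with 0.2 and 0.194 to replicates 1 and 2, against 0.097 between those. The mean of 6 epithelial markers was 11.02 to 11.50 in every array. Of 10 principal cell markers, 7 were higher in steady 600 and 8 in steady 900 than in steady 300. Their list mean ran from 5.42 to 5.61 in steady 300, 7.98 to 8.41 in steady 600 and 9.20 to 9.22 in steady 900, and was 7.56 to 7.64 in returned cells. Aqp2, the vasopressin-regulated water channel of these cells, averaged 12.04 ± 0.07 in steady 900, against 5.61 ± 0.49 in steady 300 (SD, n = 3 each), the last under the median of 6.68 over all genes. In bulk RNA, fewer cells of a type and less RNA per cell cannot be told apart.

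By brightness the members differed widely. Hbegf, heparin-binding EGF-like growth factor, was brighter than 93.4% of all genes, with a mean of 9.90 over the 30 arrays. Egfr, the receptor of all 6 ligands, and Erbb2, the co-receptor with no ligand of its own, exceeded 84.9% and 82.68% of genes. Egf itself had a mean of 4.65 and exceeded 24.6% of genes, so its array values give little room to read a decrease. Areg, Ereg and Erbb4 were also under the median of 6.68 over all genes, and exceeded 39.84%, 38.33% and 39.94% of them. The lowest group means of Ereg (4.89) and Erbb4 (4.9) were under 5.05, percentile 30 of all genes, which limits how their decreases can be read. Brightness also depends on the probes, and it does not rank the transcripts by abundance.

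Among group means, Btc, which encodes betacellulin, a ligand of EGFR and ERBB4, spanned the widest range of the 10 genes. Its means lay 2.99 log2 units apart, or 7.94-fold, from 6.71 at 12 h of the first challenge up to 9.70 in the returned cells. Ereg (epiregulin) spanned 1.88, Hbegf 1.77 and Erbb4, the neuregulin and betacellulin receptor, 1.57. Areg (amphiregulin) spanned 1.28, Erbb3, the neuregulin receptor with a weak kinase, 1.22, and Tgfa (transforming growth factor alpha) 1.12. Erbb2 spanned 0.86, Egfr 0.63 and Egf 0.51. Of the ligands, Areg, Ereg, Tgfa and Btc had their highest mean in the returned cells, Hbegf at 3 h of the first challenge and Egf in steady 900.

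Btc, Areg and Ereg are consecutive protein-coding genes on rat chromosome 14, with Epgn next to Ereg, in the RefSeq annotation of GRCr8. Upstream sequences from that annotation matched 8 of the 10 genes, with none for Ereg and Erbb3. The 250 bases before the gene start are shown for Btc and Hbegf, whose values spanned the widest ranges among the 8, and for Areg, the next gene to Btc on the chromosome. Capitals mark the motifs searched on both strands. These were the AP-1 motif TGANTCA, the core TGACG of the cAMP response element, the core GGAAA of the element bound by the tonicity factor NFAT5, and the SP1 motif GGGCGG. Sequences read 5′ to 3′ on the gene's strand, and positions count back from the gene start.
Btc: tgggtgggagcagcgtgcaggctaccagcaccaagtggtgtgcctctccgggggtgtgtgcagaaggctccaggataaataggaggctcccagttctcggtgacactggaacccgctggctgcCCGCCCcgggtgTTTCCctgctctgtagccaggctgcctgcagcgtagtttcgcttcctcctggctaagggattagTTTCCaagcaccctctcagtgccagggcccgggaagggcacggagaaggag
Areg: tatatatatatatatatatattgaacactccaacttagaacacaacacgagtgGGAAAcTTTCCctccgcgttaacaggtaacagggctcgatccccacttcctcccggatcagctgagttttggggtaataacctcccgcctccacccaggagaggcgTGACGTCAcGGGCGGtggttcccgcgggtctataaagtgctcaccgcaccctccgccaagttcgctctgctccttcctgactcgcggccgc
Hbegf: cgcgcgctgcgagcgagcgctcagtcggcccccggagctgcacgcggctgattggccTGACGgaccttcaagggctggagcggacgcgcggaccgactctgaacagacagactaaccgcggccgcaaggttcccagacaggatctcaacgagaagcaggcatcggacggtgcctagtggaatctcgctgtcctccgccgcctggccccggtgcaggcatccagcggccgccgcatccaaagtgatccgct
The windows are chr14:16992418-16992667 on the plus strand for Btc, chr14:17265642-17265891 on the minus strand for Areg and chr18:28390221-28390470 on the minus strand for Hbegf.

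The Areg window held TGACG from −91 to −87 and, overlapping it, the same core on the other strand from −88 to −84. It also held 1 SP1 match from −82 to −77 and 2 NFAT5 core matches. Btc had 2 NFAT5 core matches, both on the opposite strand, from −115 to −111 and from −51 to −47, and 1 SP1 match. The Hbegf window had 1 match, TGACG from −193 to −189. The AP-1 motif was in none of the 8 windows. In 33469 windows of the same length, TGANTCA occurred in 6.3%, TGACG in 18.2%, GGAAA in 56.9% and GGGCGG in 30.5%. A GGAAA match is therefore common, and how often 2 TGACG matches overlap was not counted. A match of letters does not show that a factor binds there.

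Cells adapted to a higher osmolality were compared with steady 300. Btc rose most among the members at 600 mosmol/kg, where Tgfa and the receptors Erbb2 and Erbb3 were higher too. At 900 mosmol/kg these 4 genes were again higher, and so were Areg and Egf. Hbegf fell at both. In steady 600, 4 members were called higher and 1 lower, where 27.1% of all genes were called, 13.7% higher and 13.4% lower. Against steady 300, steady 900 had 6 members higher and 2 lower, where 42.4% of all genes were called, 20.2% higher and 22.3% lower. The median change of the 10 members was 0.21 and 0.46 in these comparisons, beside 0.006 and −0.003 over all genes. Both comparisons share the steady 300 arrays.

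Btc read 9.51, 9.42 and 9.50 in steady 600 and 9.52, 9.32 and 9.31 in steady 900, against 8.05, 8.09 and 7.93 in steady 300. The cultures at 600 and 900 mosmol/kg overlapped each other and lay clear of steady 300. The change was 1.45 ± 0.11 at 600, or 2.74-fold (adjusted p = 1.18e-11), and 1.36 ± 0.11 at 900, or 2.57-fold (adjusted p = 1.68e-11). Between steady 900 and steady 600 Btc had a change of −0.09 ± 0.11 (adjusted p = 0.65).

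Hbegf moved the other way. It read 9.90, 9.96 and 9.95 in steady 600 and 9.73, 9.69 and 9.58 in steady 900, against 10.32, 10.31 and 10.31 in steady 300. The 3 groups did not overlap and were ordered by osmolality. The changes against steady 300 were −0.37 ± 0.08 at 600 (adjusted p = 7.38e-04) and −0.65 ± 0.08 at 900 (adjusted p = 1.22e-07). Hbegf in steady 900 was also lower than in steady 600, by −0.27 ± 0.08 (adjusted p = 0.0134), a call that was lost without steady 900 replicate 3 (−0.23, adjusted p = 0.0812).

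Tgfa, a ligand of EGFR, read 7.89, 7.71 and 7.83 in steady 900, against 7.10, 7.05 and 7.24 in steady 300. Every steady 900 array was above every steady 300 array, with a change of 0.68 ± 0.09 (adjusted p = 9.32e-08). Its change in steady 600 was 0.28 ± 0.09 (adjusted p = 0.0142), and this call was lost without steady 300 replicate 1 or 2 or steady 600 replicate 1 or 3 (0.22 to 0.26) and in a fit of the compared groups only (adjusted p = 0.0548). Areg, an EGFR ligand, read 5.83, 5.77 and 5.90 in steady 900, against 5.37, 5.44 and 5.49 in steady 300, a change of 0.41 ± 0.12 (adjusted p = 0.00758). Egf, the founding ligand, rose by 0.51 ± 0.11 in steady 900 (adjusted p = 1.93e-04), with 5.01, 4.90 and 5.08 against 4.43, 4.58 and 4.43 in steady 300. Ereg, a ligand of EGFR and ERBB4, had changes of −0.23 ± 0.13 at 600 and 0.05 ± 0.13 at 900, neither called.

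Of the receptors, Erbb3 rose most in steady 900, with 8.05, 8.17 and 7.95, against 7.06, 6.85 and 7.06 in steady 300. The groups did not overlap, and the change of 1.07 ± 0.11 was 2.09-fold (adjusted p = 4.64e-09). Erbb2, its usual partner, read 9.18, 9.15 and 9.17 in steady 900 and 8.88, 8.87 and 8.92 in steady 600, against 8.33, 8.34 and 8.41 in steady 300. These groups did not overlap either, and the changes against steady 300 were 0.80 ± 0.11 at 900 (adjusted p = 6.98e-07) and 0.53 ± 0.11 at 600 (adjusted p = 4.92e-04). Erbb3 was also higher in steady 600 than in steady 300, by 0.37 ± 0.11 (adjusted p = 0.0151), and lost that call without steady 300 replicate 2 or steady 600 replicate 2 or 3 (0.30 to 0.35).

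The other receptors moved less. Erbb4 in steady 900 had a change of −0.29 ± 0.11 against steady 300 (adjusted p = 0.0354). That call was lost without steady 300 replicate 2 or 3 or steady 900 replicate 1 (−0.30 to −0.22), after quantile normalization (−0.21) and after median centring (−0.25). Egfr had changes of 0.18 ± 0.11 in steady 600 and 0.23 ± 0.11 in steady 900, neither called. In steady 900 it was called under 4 of 15 alternatives, with a highest change of 0.28.

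Directly between steady 900 and steady 600, 3 members were higher and 1 lower, beside 24.2% of all genes (11.3% higher, 12.9% lower). Erbb3 was higher by 0.70 ± 0.11 (adjusted p = 1.88e-05), Tgfa by 0.40 ± 0.09 (adjusted p = 5.46e-04) and Egf by 0.32 ± 0.11 (adjusted p = 0.0247), the last not without steady 600 replicate 1 or 2 or steady 900 replicate 1 or 3 (0.26 to 0.32) or in a fit of the compared groups only (adjusted p = 0.0633). Erbb2 was at 0.27 ± 0.11 (adjusted p = 0.0849) and was called after median centring (0.31), with cyclic loess (0.32), with array weights (0.28) and in a fit of the compared groups only. Egf is known from the thick ascending limb and distal convoluted tubule. Of 5 measured markers of those segments, 0 were higher and 1, Cldn16, was lower in steady 900 than in steady 600, at 6.75 ± 0.03 against 7.55 ± 0.07 (SD, n = 3 each). Against steady 300, 2 of the 5 were higher in steady 900 and 0 lower. These were Slc12a1, at 6.66 ± 0.18 in steady 900 against 4.59 ± 0.26 in steady 300, and Kcnj1, at 4.20 ± 0.07 against 3.75 ± 0.08 (SD, n = 3 each). Umod and Slc12a3 were called in neither comparison. The part of such cells in the Egf change was not tested.

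**Figure D1:**
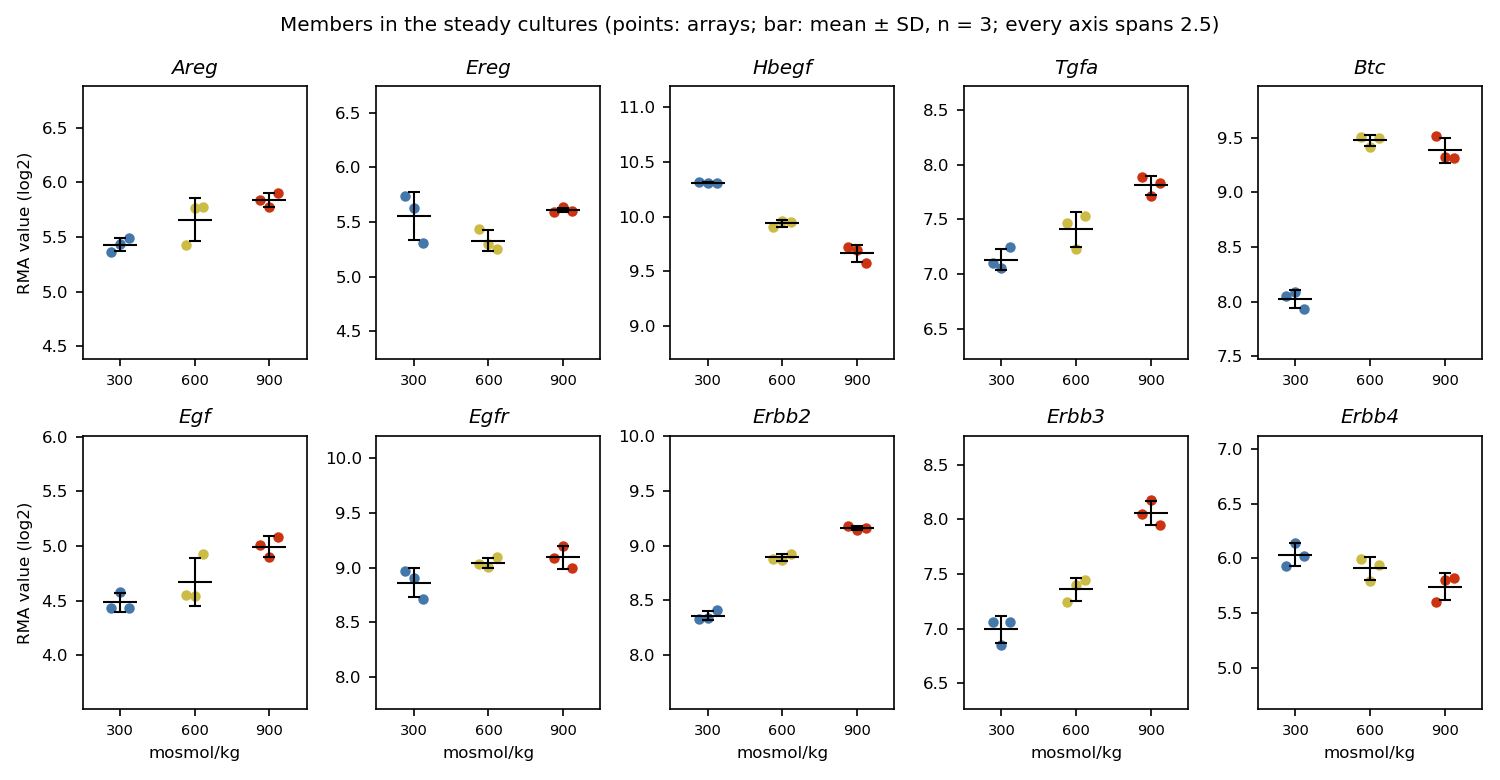
RMA log2 values of the 10 genes in cultures kept at 300, 600 and 900 mosmol/kg (points, single arrays; bars, mean ± SD, n = 3; every axis spans 2.5 log2 units). Btc, Erbb2 and Erbb3 stand higher at both 600 and 900 than at 300, and Hbegf stands lower at both.

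Markers of other cells moved beside these genes. Of 12 macrophage and leukocyte markers, 11 were lower in steady 600 and 12 in steady 900 against steady 300. Their mean over the list ran from 5.83 to 6.0 in the steady 900 arrays and from 6.58 to 6.60 in steady 600, against 8.49 to 8.63 in steady 300. Of 10 fibroblast markers, 7 were lower in steady 900, where the list mean was 6.79 to 6.81, against 8.84 to 8.87 in steady 300. Of all genes, 13.4% were lower in steady 600 and 22.3% in steady 900, against steady 300. The mean of 5 proximal tubule and thin limb markers was 7.37 to 7.43 in steady 900 against 5.65 to 5.8 in steady 300. That of 5 measured endothelial markers was 7.99 to 8.11 against 7.61 to 7.65. That of 6 intercalated cell markers was lower, at 4.7 to 4.97 against 5.25 to 5.42. The part of these cell types in the members' changes was not tested.

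The first challenge, 600 mosmol/kg after culture at 300, was followed against steady 300. At 3 h Hbegf and Areg were higher and Btc was lower. By 12 h Hbegf had dropped under its steady 300 level, and Btc reached its lowest value of the series. Areg had its highest mean of this time course at 12 h, 6.12, with arrays that overlapped those at 24 h, where the mean was 6.03. Ereg was highest at 24 h. Erbb4 had its highest mean at 48 h, where its lowest array read 6.353, barely above the highest at 24 h, 6.347. All 4 comparisons share the steady 300 arrays.

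At 3 h, 2 members were called higher and 1 lower, beside 41.6% of all genes (12.1% higher, 29.5% lower). Hbegf read 10.77, 10.73 and 11.15 at 3 h, against 10.32, 10.31 and 10.31 in steady 300. Each 3 h array was above the steady 300 arrays, replicate 3 by most. The change was 0.57 ± 0.08, or 1.49-fold (adjusted p = 2.97e-06), and 0.44 without 3 h replicate 3 (adjusted p = 1.02e-05).

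Areg read 6.12, 5.70 and 5.65 at 3 h, against 5.37, 5.44 and 5.49 in steady 300. The groups did not overlap, but replicate 1 was well above the other 3 h arrays. Its change of 0.39 ± 0.12 (adjusted p = 0.0109) was not called without that array (0.25, adjusted p = 0.125), and was 0.48 without replicate 3. Btc read 7.56, 7.43 and 7.49 at 3 h, against 8.05, 8.09 and 7.93 in steady 300, a change of −0.53 ± 0.11 (adjusted p = 3.62e-04) that was −0.52 without 3 h replicate 3. With cyclic loess scaling the Btc change was −0.29 (adjusted p = 0.0502), and after quantile normalization −0.32 (adjusted p = 0.0272). Median centring added calls for Ereg (0.43, against 0.26 ± 0.13 without it) and Egf (0.27, against 0.10 ± 0.11).

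The receptor values at 3 h moved with the scaling and with single arrays. Of the 4, 0 were called by limma and 2, Egfr and Erbb3, had an unadjusted p under 0.05. After quantile normalization, median centring and cyclic loess, Erbb2 was called higher (0.38, 0.34 and 0.42), and so was Erbb3 (0.45, 0.41 and 0.41). Erbb4, at 0.17 ± 0.11 here, was called higher under quantile normalization (0.28) and median centring (0.34), and was 0.13 with cyclic loess. The Egfr change shrank to −0.04, −0.08 and 0.00 under the 3 rescalings. Egfr had a change of −0.25 ± 0.11 (adjusted p = 0.0609), and −0.42 without 3 h replicate 3 (adjusted p = 7.57e-04) or −0.33 without steady 300 replicate 3 (adjusted p = 0.0324). Egfr was also called lower with array weights (−0.36, adjusted p = 0.00197), without dim genes (adjusted p = 0.0442) and with trend and robust variance (adjusted p = 0.044). In all, 5 of 15 alternatives called it. Erbb2 was at 0.17 ± 0.11, −0.04 without 3 h replicate 3 and 0.36 without 3 h replicate 1 (adjusted p = 0.00625). Erbb3 was at 0.24 ± 0.11, and at 0.35 without 3 h replicate 1 (adjusted p = 0.0223). Bright genes as a whole read lower at this time: the median change was −0.23 in the 4836 brightest genes, −0.09 in 4835 of middle brightness and 0.09 in the 4835 dimmest. Median centring of the arrays shifted the median of all genes to 0.13, from −0.04, and at 12 h to 0.16, from −0.013.

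At 12 h, 2 members were higher and 4 lower, beside 34.5% of all genes (11.9% higher, 22.6% lower). Btc read 6.91, 6.39 and 6.85 at 12 h, against 8.05, 8.09 and 7.93 in steady 300. All 12 h arrays lay far under steady 300, and replicate 2 was lowest. The change was −1.31 ± 0.11, or 2.47-fold lower (adjusted p = 2.07e-10).

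Areg stood at 6.06, 6.28 and 6.02 at 12 h, against 5.37, 5.44 and 5.49 in steady 300, with no overlap and a change of 0.69 ± 0.12 (adjusted p = 4.80e-05). Hbegf read 9.80, 9.89 and 9.79 at 12 h, against 10.32, 10.31 and 10.31 in steady 300, so the direction of 3 h had turned (−0.48 ± 0.08, adjusted p = 2.74e-05, and −0.31 after median centring, adjusted p = 0.00172). Erbb2 was higher, at 8.83, 8.97 and 8.84 against 8.33, 8.34 and 8.41 in steady 300 (0.52 ± 0.11, adjusted p = 5.43e-04). Erbb4 was lower at 12 h, by −0.52 ± 0.11 (adjusted p = 4.95e-04). Ereg missed or passed the threshold with the setting: its change of −0.33 ± 0.13 (adjusted p = 0.0474) was not called under 9 of 15 alternatives, among them without steady 300 replicate 1 or 2 or any 1 of the 12 h arrays (−0.36 to −0.24), after quantile normalization (−0.29), with cyclic loess (−0.32) and after median centring (−0.15, adjusted p = 0.306). Tgfa, at 0.07 ± 0.09 here, was called higher after quantile normalization (0.23) and median centring (0.24), and Egf, at 0.11 ± 0.11, after median centring (0.28).

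At 24 h, 5 members were higher and 1 lower, beside 22.3% of all genes (9.40% higher, and 1879 of 14506 genes lower). Ereg read 6.65, 6.47 and 6.02 at 24 h, against 5.74, 5.63 and 5.31 in steady 300. The groups did not overlap, although replicate 3 was lower than the other 24 h arrays. The change was 0.83 ± 0.13, or 1.77-fold (adjusted p = 9.61e-06). Areg was higher by 0.60 ± 0.12 (adjusted p = 4.36e-04) and Erbb3 by 0.51 ± 0.11 (adjusted p = 0.0012). Egfr was higher by 0.37 ± 0.11 (adjusted p = 0.0127) and Erbb2 by 0.36 ± 0.11 (adjusted p = 0.0185). The Egfr call was lost without steady 300 replicate 3 (0.29) or 24 h replicate 2 (0.34), and that of Erbb2 without steady 300 replicate 1 or 2 (0.35) or 24 h replicate 1 (0.34). Hbegf was lower by −0.36 ± 0.08 (adjusted p = 0.00134), and Btc was back near its starting level, at −0.19 ± 0.11 (adjusted p = 0.249).

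At 48 h, 3 members were higher and 2 lower, beside 21.6% of all genes (9.57% higher, 12.0% lower). Erbb4 read 6.48, 6.35 and 6.59 at 48 h, against 5.93, 6.14 and 6.03 in steady 300, with no overlap and a change of 0.44 ± 0.11 (adjusted p = 0.00421). Hbegf was lower by −0.46 ± 0.08 (adjusted p = 9.87e-05). The calls of Tgfa (−0.27 ± 0.09, adjusted p = 0.02), Egfr (0.33 ± 0.11, adjusted p = 0.0261) and Erbb3 (0.36 ± 0.11, adjusted p = 0.0217) were nearer the threshold. Each was lost without some single arrays, although the 48 h and steady 300 arrays of these genes did not overlap. Tgfa lost its call without steady 300 replicate 3 or 48 h replicate 2 or after median centring (−0.22 for each). Egfr lost it without steady 300 replicate 3 (0.26) or 48 h replicate 3 (0.28). Erbb3 lost it without steady 300 replicate 2 (0.29) or 48 h replicate 1 (0.32). Erbb2, Areg and Ereg, each at 0.26, were not called, although their 48 h arrays were all above the steady 300 arrays. Erbb2 was called higher under 3 of 15 alternatives, Areg under 2 and Ereg under 1.

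Between 48 h and 3 h, 3 members were higher and 1 lower, beside 45.6% of all genes (29.7% higher, 15.9% lower). Hbegf fell by 1.03 ± 0.08 at 48 h against 3 h, or 2.04-fold (adjusted p = 6.30e-11), and Egfr rose by 0.59 ± 0.11 (adjusted p = 5.79e-05), or by 0.38 after quantile normalization and 0.31 with cyclic loess. Btc (0.31 ± 0.11, adjusted p = 0.026) and Erbb4 (0.27 ± 0.11, adjusted p = 0.0485) were near the threshold. The Btc call was lost under all 3 rescalings, at 0.11 after quantile normalization, 0.19 after median centring and 0.04 with cyclic loess, and without 3 h replicate 2 or 3 or 48 h replicate 1 or 2 (0.27 to 0.30). The Erbb4 call was lost under 8 of 15 alternatives, with 0.23 after quantile normalization, 0.16 after median centring and 0.21 to 0.27 without 3 h replicate 1 or 2 or 48 h replicate 1 or 3. Tgfa, at −0.19 ± 0.09 here, was called lower under the 3 rescalings (−0.39 to −0.30).

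**Figure D2:**
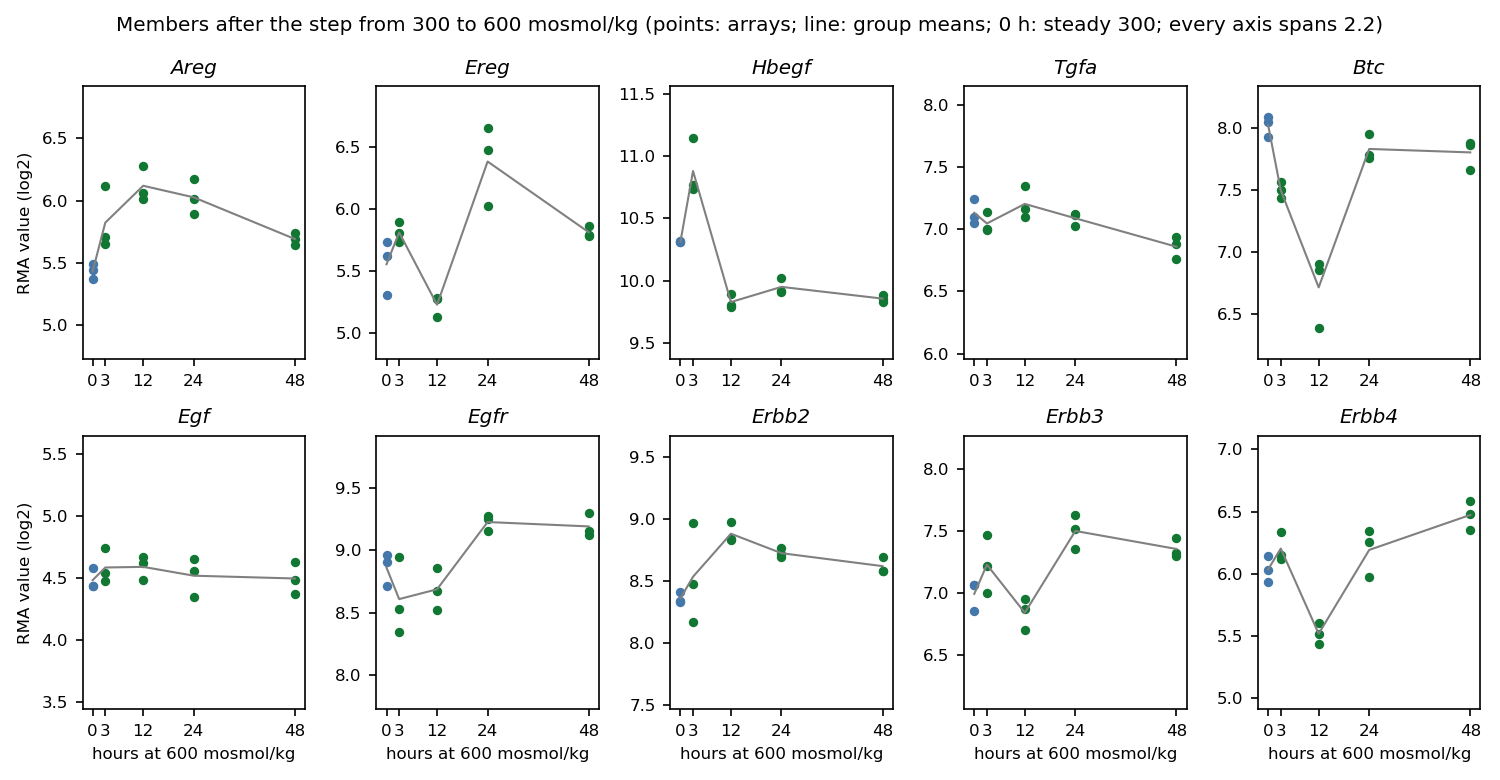
RMA log2 values of the 10 genes over hours at 600 mosmol/kg after culture at 300 mosmol/kg (points, single arrays; lines, group means; 0 h is steady 300; every axis spans 2.2 log2 units). Hbegf peaks at 3 h and Ereg at 24 h, Areg is high at 12 and 24 h, where its arrays overlap, and Btc is lowest at 12 h.

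After 48 h the challenged cells were set against cells kept at 600 mosmol/kg. Here 2 members were higher and 2 lower, beside 22.0% of all genes (9.47% higher, 12.5% lower). Btc read 7.86, 7.88 and 7.66 at 48 h, against 9.51, 9.42 and 9.50 in steady 600. The groups lay far apart, with a change of −1.67 ± 0.11, or 3.19-fold lower at 48 h (adjusted p = 8.70e-13). Tgfa was lower by −0.55 ± 0.09 (adjusted p = 9.16e-06), Erbb4 higher by 0.56 ± 0.11 (adjusted p = 2.71e-04) and Ereg higher by 0.48 ± 0.13 (adjusted p = 0.00537). Hbegf differed by −0.08 ± 0.08 (adjusted p = 0.568). In the same comparison 7 of 10 principal cell markers were lower and 0 higher, with a median of −2.73, and 6 of 10 fibroblast markers were lower and 1 higher. Their part was not tested.

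Markers of other cells changed over this time course too. Of 12 macrophage and leukocyte markers, 4 were higher and 1 lower at 3 h than in steady 300. At 12 h 2 of 12 were higher than in steady 300, while 10 of 12 were lower at 24 h and at 48 h. Their list mean was 8.43 to 8.82 at 12 h, 6.75 to 6.88 at 24 h and 6.48 to 6.61 at 48 h, against 8.49 to 8.63 in steady 300. Of 10 fibroblast markers, 3, 5, 7 and 8 were lower at 3, 12, 24 and 48 h, with a median of −1.21 at 24 h. Of 5 measured endothelial markers, 2 were lower at 3 h and 4 at 12 h (median −0.74) and at 24 h. Of 6 epithelial markers, 4 were lower at 3 h and 3 at 12 h. Of all genes, 29.5% were lower at 3 h, 22.6% at 12 h, 1879 of 14506 at 24 h and 12.0% at 48 h. The 3 of 10 fibroblast markers at 3 h were near that share. Higher were 12.1% of all genes at 3 h and 11.9% at 12 h. The part of these cell types in the members' changes was not tested.

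The second challenge, 900 mosmol/kg after culture at 600, was compared with steady 600. At 12 h Btc, Hbegf, Ereg and Erbb4 fell and Tgfa and Erbb2 rose. These 4 lower and 2 higher members stood beside 37.8% of all genes (12.5% higher, 25.3% lower). Btc read 8.12, 8.18 and 8.50 at 12 h, against 9.51, 9.42 and 9.50 in steady 600. The groups did not overlap, and the change was −1.21 ± 0.11, or 2.31-fold lower (adjusted p = 6.47e-10). Hbegf read 9.32, 9.32 and 9.43 at 12 h, against 9.90, 9.96 and 9.95 in steady 600, a change of −0.58 ± 0.08 (adjusted p = 1.38e-06).

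Tgfa stood at 7.76, 7.77 and 7.77 after 12 h at 900, against 7.47, 7.23 and 7.53 in steady 600 (0.36 ± 0.09, adjusted p = 0.00106). Erbb4 was lower by −0.52 ± 0.11 (adjusted p = 3.67e-04), with 5.27, 5.21 and 5.69 in replicates 1, 2 and 9. Ereg was lower by −0.44 ± 0.13 (adjusted p = 0.00687), but not called without 12 h replicate 2 (−0.33) or after median centring (−0.28), which here shifted the median of all genes to 0.122. Erbb2 was higher by 0.33 ± 0.11 (adjusted p = 0.0228), and not called without steady 600 replicate 1 or 2 or 12 h replicate 1 or 2 (0.26 to 0.32). Egfr, at 0.19 ± 0.11 here, was called higher under the 3 rescalings (0.31 to 0.35). Of the markers, 10 of 12 macrophage and leukocyte and 7 of 10 fibroblast ones were lower than in steady 600 at this time. So were 4 of 5 endothelial and 5 of 6 epithelial ones, beside 25.3% of all genes. The part of these cell types was not tested.

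By 24 h at 900, 1 member was higher and 2 lower than in steady 600, beside 25.9% of all genes (11.2% higher, 14.7% lower). Hbegf read 9.06, 9.13 and 9.15 at 24 h, against 9.90, 9.96 and 9.95 in steady 600. These were its lowest values in the series, with a change of −0.83 ± 0.08 (adjusted p = 5.00e-09). Btc had come part of the way back, at 8.72, 8.58 and 8.79 against 9.51, 9.42 and 9.50 in steady 600 (−0.78 ± 0.11, adjusted p = 2.63e-06). Erbb3 was higher by 0.35 ± 0.11 (adjusted p = 0.0213), a call lost without steady 600 replicate 1 (0.29) or 24 h replicate 1 (0.32) or 2 (0.35). At this time 10 of 12 macrophage and leukocyte and 8 of 10 fibroblast markers were lower than in steady 600, and 5 of 10 principal cell markers were higher and 2 lower. Their part was not tested.

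Set against cells kept at 900 mosmol/kg, the 24 h cells had 0 members higher and 5 lower by limma, beside 18.3% of all genes (9.47% higher, 8.83% lower). At an unadjusted p under 0.05, 1 member was higher, Erbb4 at 0.29 ± 0.11 (adjusted p = 0.068), and Egfr joined the lower ones at −0.24 ± 0.11 (adjusted p = 0.13). Erbb4 was called higher under 5 of 15 alternatives, and its arrays were all above those of steady 900. Egfr was called lower with array weights (adjusted p = 0.0168). Btc was lower by −0.69 ± 0.11 (adjusted p = 3.45e-05) and Hbegf by −0.55 ± 0.08 (adjusted p = 1.12e-05). Areg (−0.43 ± 0.12, adjusted p = 0.0128) lost its call without steady 900 replicate 3 (−0.40) or 24 h replicate 2 (−0.30). Tgfa (−0.31 ± 0.09, adjusted p = 0.0109) lost it without steady 900 replicate 1 (−0.27), and Erbb3 (−0.35 ± 0.11, adjusted p = 0.0323) without steady 900 replicate 1 or 2 or any 1 of the 24 h arrays (−0.38 to −0.29). Beside these, 6 of 10 fibroblast markers were higher, and 4 of 12 macrophage and leukocyte markers were lower and 1 higher.

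The responses to the 2 upward challenges were then compared as a difference of changes, the second minus the first. At 24 h the difference was called for 5 members, all toward a lower change in the second challenge, beside 12.9% of all genes (7.48% higher, 5.46% lower). Areg changed by −0.25 ± 0.12 in the second challenge and 0.60 ± 0.12 in the first, a difference of −0.85 ± 0.17 (adjusted p = 8.82e-04). Ereg differed by −0.59 ± 0.18 (adjusted p = 0.0268), Btc by −0.59 ± 0.16 (adjusted p = 0.0108), Egfr by −0.56 ± 0.15 (adjusted p = 0.0128) and Hbegf by −0.46 ± 0.12 (adjusted p = 0.00639). The Ereg call was lost without steady 300 replicate 3 (−0.47), steady 600 replicate 1 (−0.54), replicate 1 (−0.46) or 2 (−0.55) of the first challenge or replicate 1 of the second (−0.51), and in a fit of the compared groups only (adjusted p = 0.0688).

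At 12 h the difference was called for Areg alone among the 10, beside 13.4% of all genes (6.18% higher, 7.25% lower). Areg changed by −0.05 ± 0.12 in the second challenge and 0.69 ± 0.12 in the first, a difference of −0.74 ± 0.17 (adjusted p = 0.00334). Btc, with −1.21 in the second and −1.31 in the first, differed by 0.10 ± 0.16 (adjusted p = 0.777). Erbb4, with −0.52 in each, had a difference with adjusted p = 0.994 and SE 0.16.

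**Figure D3:**
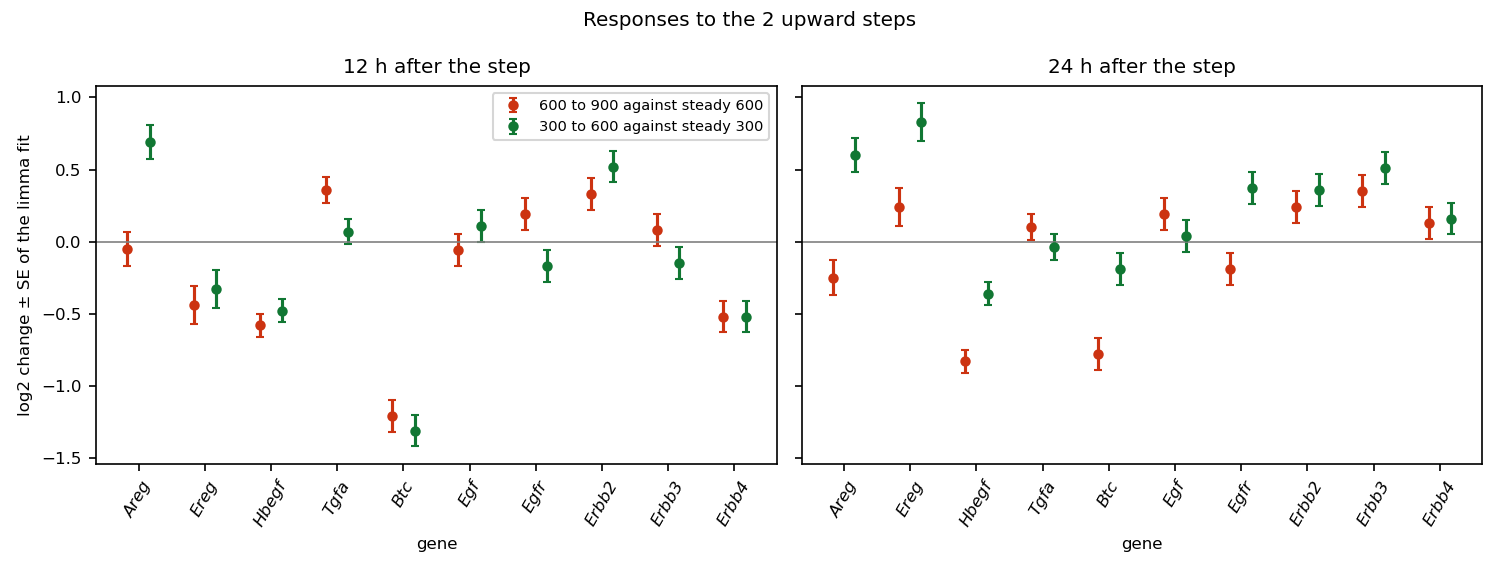
Log2 change ± SE of each gene 12 h (left) and 24 h (right) after the step from 600 to 900 mosmol/kg against steady 600 (red) and after the step from 300 to 600 against steady 300 (green). Areg separates at both times, and Ereg, Hbegf, Btc and Egfr at 24 h.

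The returned cells had spent 24 h at 300 mosmol/kg after culture at 900. Against steady 900, the ligands Ereg, Areg, Hbegf and Btc were higher and the receptors Erbb2, Erbb3 and Erbb4 and the ligand Egf were lower. These 4 higher and 4 lower members stood beside 37.7% of all genes (19.3% higher, 18.5% lower).

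Ereg read 6.81, 6.95 and 6.55 in returned cells, against 5.59, 5.63 and 5.61 in steady 900. The groups were far apart, with a change of 1.16 ± 0.13, or 2.23-fold (adjusted p = 1.80e-08). Areg read 6.62, 6.64 and 6.81 in returned cells, against 5.83, 5.77 and 5.90 in steady 900, a change of 0.85 ± 0.12 or 1.81-fold (adjusted p = 1.64e-06). Each returned array was above each steady 900 array for both ligands.

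Hbegf read 10.07, 10.24 and 10.14 in returned cells, against 9.73, 9.69 and 9.58 in steady 900. The groups did not overlap, with a change of 0.49 ± 0.08 (adjusted p = 1.95e-05). Btc rose further, by 0.32 ± 0.11 (adjusted p = 0.0242), a call lost without steady 900 replicate 2 (0.29) or 3 (0.28) or returned replicate 2 (0.26). Tgfa had a change of 0.17 ± 0.09 (adjusted p = 0.13). Egf, at the dim end of the scale, had a change of −0.27 ± 0.11 (adjusted p = 0.0452) and lost its call under 8 of 14 alternatives, among them without steady 900 replicate 1 or 3 or returned replicate 2 or 9 (as the labels number them; −0.27 to −0.19).

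Erbb3 read 7.20, 7.14 and 6.98 in returned cells, against 8.05, 8.17 and 7.95 in steady 900. The groups did not overlap, and the change was −0.95 ± 0.11, or 1.93-fold lower (adjusted p = 8.70e-08). Erbb2 read 8.39, 8.49 and 8.37 in returned cells, against 9.18, 9.15 and 9.17 in steady 900 (−0.75 ± 0.11, adjusted p = 3.98e-06). Erbb4 read 4.95, 4.80 and 4.95 in returned cells, against 5.60, 5.81 and 5.82 in steady 900 (−0.84 ± 0.11, adjusted p = 4.60e-07). Egfr had a change of −0.19 ± 0.11 (adjusted p = 0.188).

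Returned cells were also compared with steady 300, the cells kept at the osmolality they had come to. Of the members, 4 were higher and 1 lower, beside 42.6% of all genes (20.4% higher, 22.2% lower). All 4 higher members were ligands: Btc by 1.68 ± 0.11, or 3.2-fold (adjusted p = 2.06e-13), Areg by 1.26 ± 0.12, or 2.39-fold (adjusted p = 7.83e-10), Ereg by 1.21 ± 0.13 (adjusted p = 3.72e-09) and Tgfa by 0.85 ± 0.09 (adjusted p = 1.57e-09). For Btc the arrays read 9.63, 9.81 and 9.66 in returned cells, against 8.05, 8.09 and 7.93 in steady 300. All returned arrays were above all steady 300 arrays for this ligand.

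Erbb4 was lower in returned cells than in steady 300, by −1.14 ± 0.11, or 2.2-fold (adjusted p = 1.01e-09), at 4.95, 4.80 and 4.95 against 5.93, 6.14 and 6.03. These were its lowest values among the 10 groups, and their mean of 4.9 lay under percentile 30 of brightness over all genes, 5.05. The receptors that had stood high in steady 900 showed small changes against steady 300, with Erbb2 at 0.06 ± 0.11 (adjusted p = 0.735) and Erbb3 at 0.12 ± 0.11 (adjusted p = 0.467). Hbegf was at −0.16 ± 0.08 (adjusted p = 0.125), although every returned array was under every steady 300 array. With array weights it was called lower (−0.18, adjusted p = 0.00418). Egf, at 0.24 ± 0.11 (adjusted p = 0.0696), was called higher under 4 of 14 alternatives.

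**Figure D4:**
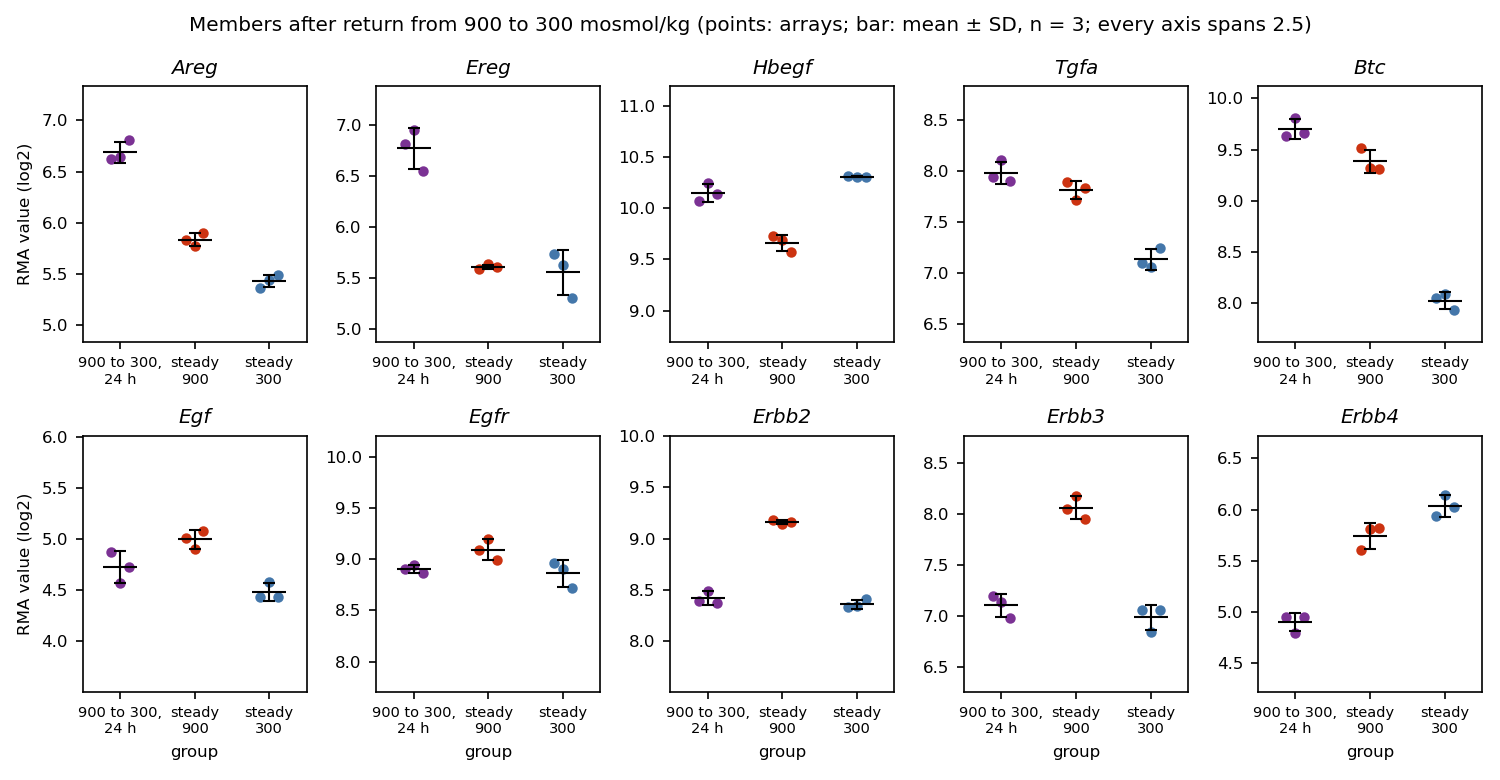
RMA log2 values of the 10 genes in returned cells (900 to 300 mosmol/kg, 24 h), steady 900 and steady 300 (points, single arrays; bars, mean ± SD, n = 3; every axis spans 2.5 log2 units). Areg and Ereg are highest in returned cells, Erbb2 and Erbb3 stand near steady 300, and Erbb4 is under both steady groups.

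The cell type markers differed between these groups. In returned cells 12 of 12 macrophage and leukocyte markers and 9 of 10 fibroblast markers were lower than in steady 300. Of all genes, 22.2% were lower. The macrophage list mean was 5.46 to 5.61 in returned cells and 5.83 to 6.0 in steady 900, against 8.49 to 8.63 in steady 300. Principal cell markers were lower than in steady 900 for 8 of 10. Aqp2 averaged 8.0 ± 0.17 in returned cells, against 12.04 ± 0.07 in steady 900 and 5.61 ± 0.49 in steady 300 (SD, n = 3 each). Against steady 900, 1 of the 12 macrophage markers was higher and 4 were lower, beside 19.3% and 18.5% of all genes. The increases of Areg and Ereg came beside these marker changes. The part of these cells was not tested.

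**Figure D5:**
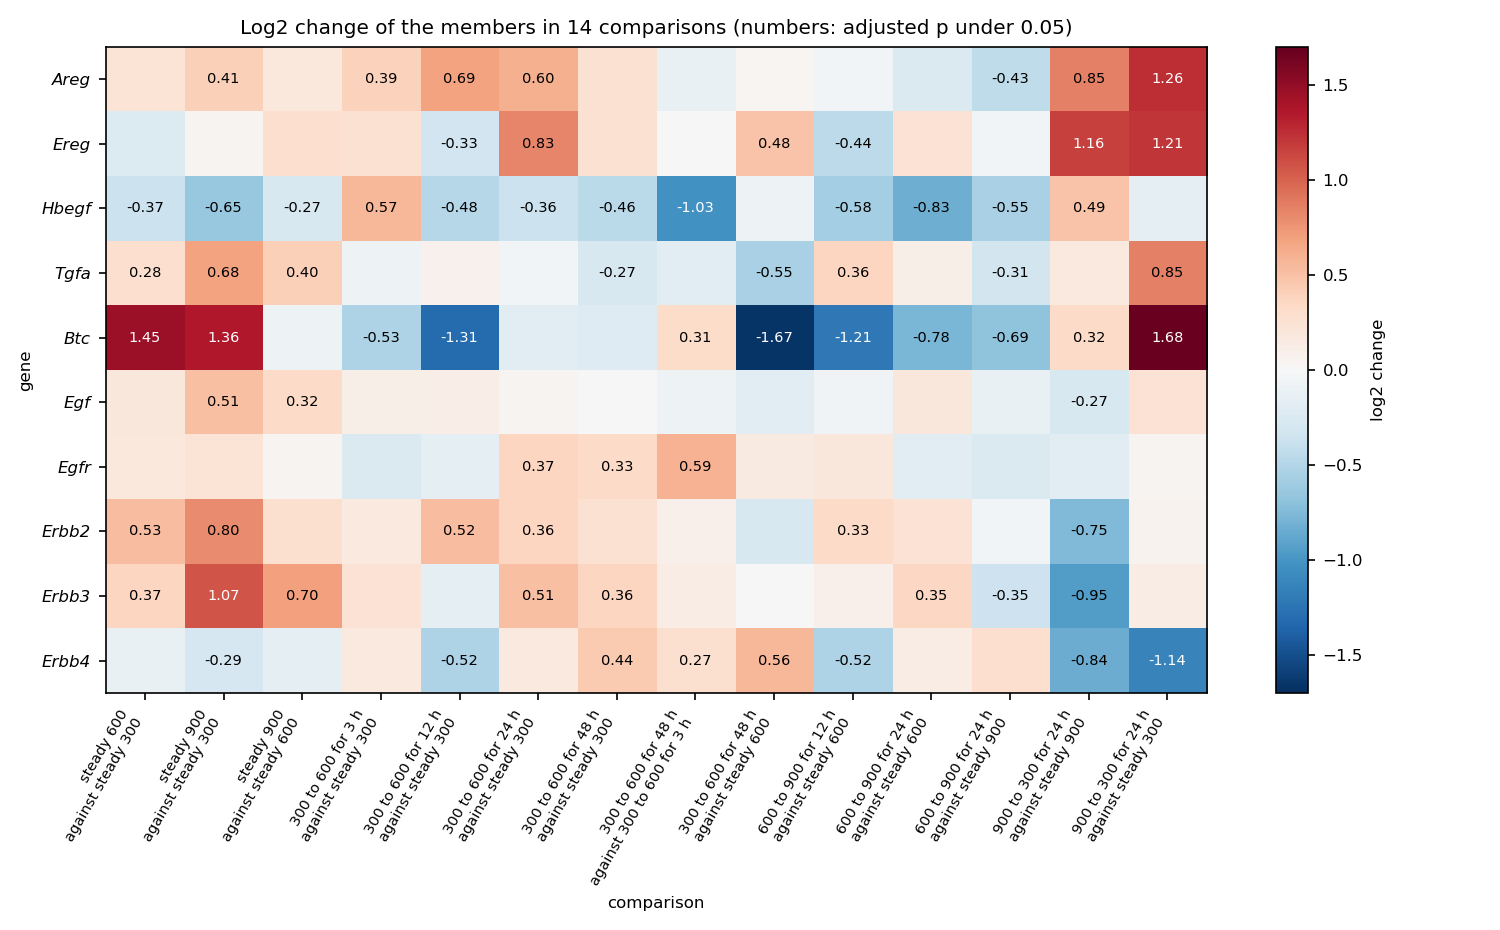
Log2 change of each gene (rows) in the 14 comparisons (columns), coloured from blue (lower) to red (higher). Numbers are printed where the adjusted p was under 0.05. Btc holds both the strongest increase, 1.68 in returned cells against steady 300, and the strongest decrease, −1.67 at 48 h against steady 600.

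For each member, the genes with the most similar profile were the 3 with the highest Pearson correlation over the 10 group means. They were taken from 3945 genes spanning at least 1 log2 unit, without the members and symbols starting with LOC, RGD, MGC or AABR. Picking the highest of so many over 10 points favours high coefficients. The means share their arrays, so the coefficients describe these groups only. Areg was most like Havcr1 (r = 0.959), which encodes the tubule injury marker KIM-1. Havcr1 averaged 10.29 in returned cells, against 7.95 in steady 900 and 7.34 in steady 300. Hbegf was most like Klf6 (0.973), Junb (0.947) and Myc (0.937), which are known immediate early genes. Btc was most like Ggh (0.985), a gamma-glutamyl hydrolase, which averaged 9.84 in returned cells, against 9.55 in steady 900 and 8.05 in steady 300.

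Ereg was most like Bcl2 (0.863), an inhibitor of apoptosis, Tgfa like Hirip3 (0.973) and Egf like Adamtsl5 (0.981). Erbb2 was most like Zbtb38 (0.972), Erbb3 like Neurl1b (0.935), Erbb4 like P3h4 (0.917) and Egfr like Ankzf1 (0.805). Among the members themselves, Tgfa and Btc had r = 0.732 over the 10 group means. Tgfa and Erbb4 had r = −0.827, and Hbegf and Erbb2 r = −0.80.

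Other genes of the pathway were counted from lists of its parts. Of 5 further ERBB ligand genes 2 were measured. Nrg1, which encodes neuregulin 1, a ligand of ERBB3 and ERBB4, averaged 6.16 ± 0.18 in steady 600 and 5.48 ± 0.22 in steady 900, against 7.37 ± 0.08 in steady 300 (SD, n = 3 each). It fell by 1.21 ± 0.12 at 600 (adjusted p = 2.40e-09) and by 1.89 ± 0.12 at 900 (adjusted p = 5.79e-14), while its receptor Erbb3 rose. In returned cells Nrg1 was 0.78 ± 0.12 above steady 900 (adjusted p = 4.53e-06). The other measured ligand gene, Nrg2, had group means between 4.81 and 5.12.

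Of 8 measured genes of ligand shedding and trafficking, 1 was higher and 5 lower in steady 900 than in steady 300, where 42.4% of all genes were called. Timp3, which encodes an inhibitor of ADAM17, averaged 12.05 ± 0.08 in steady 900 and 11.25 ± 0.12 in steady 600, against 9.48 ± 0.14 in steady 300 (SD, n = 3 each). Its changes were 2.57 ± 0.09 (adjusted p = 1.84e-19) and 1.77 ± 0.09 (adjusted p = 3.50e-15), and in returned cells it was lower than in steady 900 by −1.65 ± 0.09 (adjusted p = 4.58e-14). Timp3 also inhibits matrix metalloproteinases. Adam9, a membrane protease, was lower in steady 900 than in steady 300 by −0.69 ± 0.08 (adjusted p = 1.65e-08), and Rhbdl2, a rhomboid protease, by −0.73 ± 0.08 (adjusted p = 8.54e-09).

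Among 15 measured genes that restrain the receptors, 3 were higher and 8 lower in steady 900 than in steady 300, beside 42.4% of all genes called, with a median change of −0.25 beside −0.003 over all genes. Errfi1, an inhibitor of the ERBB kinases, averaged 10.04 ± 0.06 in steady 900, against 12.09 ± 0.04 in steady 300 (SD, n = 3 each), a change of −2.04 ± 0.10 (adjusted p = 3.15e-16). Cblc, an E3 ligase of the CBL family, rose by 1.79 ± 0.08 (adjusted p = 1.67e-17). In returned cells, 1 of the 15 was higher and 12 lower than in steady 300, beside 42.6% of all genes called, with Errfi1 at −1.32 ± 0.10 (adjusted p = 8.23e-12). At 3 h of the first challenge 4 were higher and 5 lower, beside 41.6% of all genes called, and Spry2, an ERK feedback inhibitor, rose by 0.79 ± 0.11 (adjusted p = 1.36e-06).

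Of 21 measured adaptor and cascade genes, 2 were higher and 8 lower in steady 900 than in steady 300, a share near the 42.4% of all genes called. Their median change was −0.14, and Pik3cb, a catalytic PI3-kinase subunit, changed by −0.75 ± 0.09 (adjusted p = 4.57e-08). In returned cells 1 was higher and 12 lower than in steady 300, beside 42.6% of all genes called, with the RAS exchange factor genes Sos1 at −0.81 ± 0.11 (adjusted p = 2.39e-07) and Sos2 at −0.76 ± 0.09 (adjusted p = 8.02e-08).

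Of 17 transcripts that EGF receptor and ERK signalling is known to induce, 9 were higher and 1 lower at 3 h of the first challenge than in steady 300, where 12.1% of all genes were higher and 29.5% lower, with a median change of 0.57 beside −0.04 over all genes. Egr1, a transcription factor gene, rose by 2.54 ± 0.17 (adjusted p = 7.69e-12), and Junb by 0.87 ± 0.09 (adjusted p = 8.30e-09). Many other stimuli induce these genes. In steady 900, 5 were higher and 7 lower than in steady 300, beside 42.4% of all genes called. There Dusp4, an ERK phosphatase, was at −2.59 ± 0.10 (adjusted p = 1.34e-18), Lif, a cytokine, at −2.64 ± 0.08 (adjusted p = 3.41e-21) and Ccnd1, cyclin D1, at 1.09 ± 0.08 (adjusted p = 2.88e-12). In returned cells 10 were higher and 3 lower than in steady 900, beside 37.7% of all genes called. Lif rose by 1.46 ± 0.08 (adjusted p = 2.48e-14), while Fos fell by 0.96 ± 0.11 (adjusted p = 3.80e-08). The members of this list differ in direction within a comparison.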

How the data were processed

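Total RNA of cultured rat cells was hybridised to Affymetrix whole-transcript arrays, 1 per sample. The deposited log2 values were made by the authors with RMA, per the submitters' processing notes, which corrects background, scales arrays and summarises probes. The RMA version, the software and any scan batch were not given in the sources used here. Of 29170 probe sets, 15310 had 1 gene symbol, 323 several and 13537 none. Each of 14506 genes was represented by the brightest, on average over the 30 arrays, of its single-symbol probe sets.

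Samples were grouped by their titles. One mean per group was fitted over all 30 arrays with limma 3.58.1 (lmFit, eBayes) in R 4.3.3, without the replicate number as a block. Adjustment after Benjamini and Hochberg ran over all 14506 genes, with calls at 0.05, in 14 comparisons and 2 differences of changes. The residual SD was 0.101 to 0.156 for the members, with a median of 0.131 over all genes, and the 3 arrays per group limit the precision. In simulated data on 14506 genes for steady 900 against steady 300, the fit recovered 73 of 100 changes of 0.5 log2 units and 100 of 100 changes of 1, with 16 false calls. The simulated noise was independent between genes, and far fewer genes changed than the 42.4% called in the real comparison. These rates therefore need not hold for the real data.

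The members, gene lists, markers and motifs were chosen with earlier results of these data known. Named besides the members were up to 3 called genes per list and comparison with the smallest adjusted p, and up to 3 genes most like each member. The labels do not say whether equal replicate numbers pair the samples, and weak correlations cannot settle it. Deviations of samples with the same number correlated at −0.126 to 0.238 (median 0.012, 114 pairs). With different numbers they correlated at −0.281 to 0.226 (median −0.008, 291 pairs). The value of 0.238 was between returned cells and steady 900. Promoter windows came from RefSeq's GRCr8 annotation. Alternatives were median centring, cyclic loess, quantile normalization, leaving out genes under percentile 30 of brightness, averaging each gene's probe sets, array weights, trend and robust variance, a fit on the compared groups only, the replicate block and leaving out each array.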

Additional observations from a re-analysis of the deposited data

Results flagged for a closer look

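The change after the second upward challenge (600 to 900 mosmol/kg) was lower than that after the first (300 to 600 mosmol/kg) for 5 members at 24 h and 1 at 12 h, by a test of the difference in the limma fit, and these differences are given as values. At 24 h the differences were −0.85 for Areg, −0.59 for Ereg, −0.46 for Hbegf, −0.59 for Btc and −0.56 for Egfr. At 12 h the difference was −0.74 for Areg. In each case 3 arrays stand in each of the 4 groups.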

How the results depend on the processing

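Of 78 calls of a member in a comparison, 54 were kept under every alternative run. Of 2504 alternative values, 2343 stayed on the same side of the threshold, 93 lost a call, 68 gained one and 0 turned the sign of a call. In 70 of them the sign changed with neither value called. The number of members called at 3 h against steady 300, 3 here, was 6 after quantile normalization and 8 after median centring. For the difference between the 12 h responses it was 1 here, 2 with cyclic loess and 3 with array weights. The cause was not tested. Without single arrays the counts ran from 3 to 5 for steady 600 against steady 300, 2 to 4 for steady 900 against steady 600, 3 to 5 for 48 h against steady 300, 2 to 4 for 48 h against 3 h and 3 to 4 (5 with all arrays) for the second challenge at 24 h against steady 900. The filter at a mean of 5.05 left Egf out. What the replicate numbers stand for is not labelled. With the replicate block the counts were 5 for steady 600 and 8 for steady 900 against steady 300, 6 for returned cells against steady 900 (8 without it) and 4 for the second challenge at 24 h against steady 600 (3 without it) and against steady 900 (5 without it). With the block, Erbb3 at 24 h against steady 900 (−0.26, adjusted p = 0.121), and Btc (0.25, adjusted p = 0.0903) and Egf (−0.27, adjusted p = 0.0522) in returned cells against steady 900, lost their calls. Erbb2 at 24 h against steady 600 gained one, and the block changed no other call of a member. Egf lies near the dim end, where array values flatten, and the lowest group means of Ereg and Erbb4 also come near it. No spot-level background was used, and protein release, which controls these ligands, was not measured.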
